A study of Mus musculus with 8 samples.

Results

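The genes described here encode the silencing machinery that is built around methylation of lysine 9 of histone H3 and linked to SUMO, namely Atf7ip, Setdb1, Trim28, the HUSH genes Fam208a, Mphosph8 and Pphln1, the HUSH effector Morc2a, and the HP1 genes Cbx1, Cbx3 and Cbx5. They were taken by gene name from the authors' deposited table of 17171 genes, and the list was selected on measured values too, since the log2 fold change and adjusted p of Atf7ip in this same comparison were known when it was drawn up. Names matched 10 rows for 9 of the 10 symbols, because Atf7ip has 2 identifiers there. Fam208a is listed under an older symbol, D14Abb1e, and was found through its Ensembl identifier, ENSMUSG00000040651, which brings the rows to 11.

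RNA of the hippocampus of C57BL/6 mice aged 2 months was sequenced in 4 control samples, Sumo2 f/f, in which loxP sites flank both copies of Sumo2, and in 4 SUMO2-cKO samples, Sumo2 f/f;Emx1-Cre. Both groups therefore carried the floxed alleles, and the Cre recombinase was present in the second group only, with no control group that carried Cre alone. Emx1 drives Cre in the excitatory neuron and glial lineage of the dorsal forebrain, so other cells of the tissue keep an intact gene. Whether each sample is a different animal is not stated in the labels, so the p-values rest on a spread between samples that could be technical. Each value is a log2 fold change, knockout over wild type, as the authors computed it, with a standard error (SE) obtained from their Wald statistic. Columns of values per sample could not be assigned to a labelled sample, so levels in single samples are not analysed here. The targeted gene Sumo2 was not lower, at 0.42 (SE 0.252, DESeq2 adjusted p = 0.761) in the authors' deposited table. The genotype labels are therefore not checked by the targeted gene, and directions refer to the samples labelled knockout.

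Methylation of this lysine marks silent chromatin. SETDB1 is a methyltransferase that places the mark within euchromatin, ATF7IP binds SETDB1, holds it in the nucleus and protects it from degradation, and TRIM28, also called KAP1, is the scaffold that brings SETDB1 to sites bound by KRAB zinc finger proteins. TRIM28 carries SUMO, and SETDB1 reads that SUMO through a SUMO-interacting motif. The HUSH complex of FAM208A (TASOR), MPHOSPH8 and PPHLN1 spreads the mark with SETDB1 and with the ATPase MORC2A, and the HP1 proteins bind the methylated lysine. The machinery is known for silencing of retrotransposons and, in mouse forebrain neurons, of clustered protocadherin genes.

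The promoters of 3 of the genes are shown because they belong to the gene that rose, to its enzyme partner that was not called, and to the HP1 gene with the narrowest interval. The sequences are from RefSeq on GRCm38.p6, read 5′ to 3′ on the gene's strand from 250 bases before to 50 bases after an annotated transcript start. Capitals mark matches to the GC box GGGCGG of SP and KLF factors or to the ETS core CCGGAAG, on either strand.
Atf7ip, chr6:136518601-136518900, plus strand: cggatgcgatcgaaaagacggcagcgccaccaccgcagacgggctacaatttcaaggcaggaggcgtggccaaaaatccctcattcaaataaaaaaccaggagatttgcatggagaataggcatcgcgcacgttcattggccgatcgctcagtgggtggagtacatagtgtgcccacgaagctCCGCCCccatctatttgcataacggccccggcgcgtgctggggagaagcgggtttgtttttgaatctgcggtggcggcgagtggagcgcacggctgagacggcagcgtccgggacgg
Setdb1, chr3:95357153-95357452, minus strand: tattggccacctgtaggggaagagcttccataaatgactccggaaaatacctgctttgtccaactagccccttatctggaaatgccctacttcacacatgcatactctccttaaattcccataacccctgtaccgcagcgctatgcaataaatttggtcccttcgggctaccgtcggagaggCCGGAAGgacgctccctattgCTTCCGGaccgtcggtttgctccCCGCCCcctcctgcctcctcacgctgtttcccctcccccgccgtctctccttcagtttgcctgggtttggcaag
Cbx5, chr15:103239803-103240102, minus strand: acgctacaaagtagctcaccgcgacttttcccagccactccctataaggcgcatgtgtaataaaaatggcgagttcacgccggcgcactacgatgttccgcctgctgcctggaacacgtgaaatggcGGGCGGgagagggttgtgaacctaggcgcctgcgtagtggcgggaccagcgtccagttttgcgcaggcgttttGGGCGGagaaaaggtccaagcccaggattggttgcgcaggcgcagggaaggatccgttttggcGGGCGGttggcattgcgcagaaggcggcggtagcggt

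The Atf7ip window held 1 GC box and no ETS core, the Setdb1 window 1 GC box and 2 ETS cores, and the Cbx5 window shown 3 GC boxes and no ETS core. The GC box occurs in 35.7% and the ETS core in 8.86% of the 32851 promoter windows of that table. The full cAMP response element TGACGTCA, the kind of site that ATF proteins bind, is in 1.79% of all windows and in none of the 14 windows found for the 10 genes. CpG dinucleotides numbered 29 in the Atf7ip window, 15 in the Setdb1 window and 29 in the Cbx5 window shown, against a median of 7 over all windows. A second Cbx5 window of that table, at chr15:103215303-103215602, held 8 CpG dinucleotides, 1 GC box and no ETS core. The Atf7ip window is at a RefSeq start inside the GENCODE M21 span of the gene, which begins at 136506167. The sequence at that upstream start was not examined. These matches describe the letters only.

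Atf7ip was the 1 gene of the group that rose in the samples labelled knockout. Its first identifier, ENSMUSG00000030213 (chromosome 6, 136506167 to 136610862, plus strand, GRCm38), had a log2 fold change of 0.50 (1.42-fold, SE 0.0565, 95% interval 0.39 to 0.61, DESeq2 adjusted p = 1.61e-15) in the authors' deposited table. The second identifier, ENSMUSG00000053935, stood at 0.44 (SE 0.0611, 95% interval 0.32 to 0.56, 1.35-fold, DESeq2 adjusted p = 1.07e-09) in the authors' deposited table. The intervals of the 2 identifiers overlap, and their log2 fold changes differ by 0.07. The second identifier has no entry in GENCODE M21, so its position is not given, and whether both rows count parts of 1 transcript was not tested. They are not treated as independent observations of the gene.

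Atf7ip was among the reasons for choosing this group, and these values are given as a description. By p-value, the first identifier ranked 7th and the second 15th of all genes in the authors' deposited table. The genes with regular symbols next above the first were Hn1, Zfp110 and Glp2r, and those next below were Lct, Rian and Sumo3, so likeness in rank joined genes that were lower, such as Glp2r at -1.37 (SE 0.148), with genes that were higher, such as Lct at 0.86 (SE 0.105) in the authors' deposited table. The ranked neighbours of the second identifier were Sumo3, Slc5a5 and Skida1 above and Nfatc2, Atf6 and Pcdhb8 below. Likeness is in 1 comparison only and says nothing of patterns across samples.

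**Figure D1:**
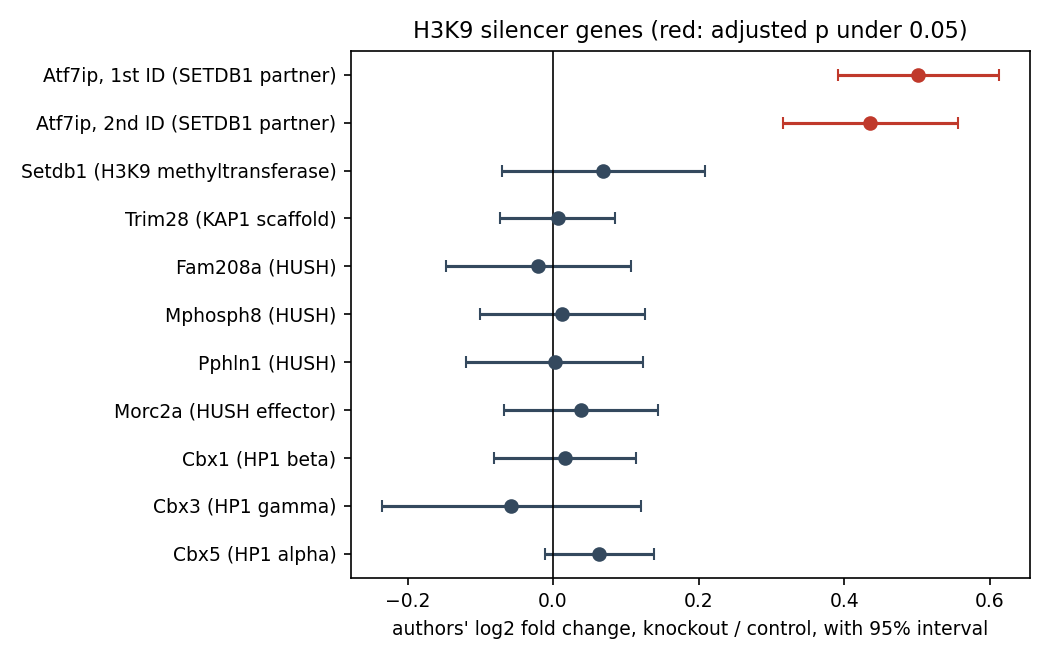
Log2 fold change, knockout over control, as deposited (x axis), for the 11 rows of the 10 silencer genes (y axis), with points for the estimate and bars for the 95% interval. Both Atf7ip rows, at 0.50 and 0.44, lie right of 0, and the intervals of the 9 other rows include 0.

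Setdb1 and Trim28, the enzyme and the scaffold with which ATF7IP works, were not called. Setdb1 (ENSMUSG00000015697, chromosome 3, 95323525 to 95357202, minus strand) stood at 0.07 (SE 0.0710, 95% interval -0.07 to 0.21) in the authors' deposited table. Trim28 (ENSMUSG00000005566, chromosome 7, 12999114 to 13031035, plus strand) stood at 0.01 (SE 0.0403, 95% interval -0.07 to 0.09) in the authors' deposited table. The interval of Setdb1 allows a rise of up to 1.16-fold, and that of Trim28 up to 1.06-fold, both below the lower bound of the first Atf7ip identifier, 1.31-fold.

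The HUSH genes lay close to 0. Mphosph8, whose chromodomain binds the methylated lysine, stood at 0.01 (SE 0.0578, 95% interval -0.10 to 0.13) in the authors' deposited table. Pphln1, which encodes periphilin, stood at 0.00 (SE 0.0620, 95% interval -0.12 to 0.12) in the authors' deposited table. Fam208a, the scaffold of the complex, stood at -0.02 (SE 0.0650, 95% interval -0.15 to 0.11) under the symbol D14Abb1e in the authors' deposited table. The effector Morc2a stood at 0.04 (SE 0.0540, 95% interval -0.07 to 0.14) in the authors' deposited table. None of the 4 genes was called.

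The HP1 genes were not called either. Cbx5, which encodes HP1 alpha, stood at 0.06 (SE 0.0383, 95% interval -0.01 to 0.14, DESeq2 adjusted p = 0.771) in the authors' deposited table. It had the smallest p-value of the uncalled rows. Cbx1, which encodes HP1 beta, stood at 0.02 (SE 0.0498, 95% interval -0.08 to 0.11) in the authors' deposited table. Cbx3, which encodes HP1 gamma, stood at -0.06 (SE 0.0909, 95% interval -0.24 to 0.12) in the authors' deposited table. Cbx3 had the widest interval of the group.

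In all, 2 of the 11 rows were called higher and 0 lower by the authors' DESeq2 test, both of them Atf7ip, where 0.967% of all 17171 genes were called higher and 0.530% lower. At an unadjusted p under 0.05 the same 2 rows passed. The group was chosen with this comparison known, so nothing is read from that count. Over all 17171 genes, fewer than 1464 had an unadjusted p under 0.05 by the authors' DESeq2 test. The median log2 fold change of the 11 rows was 0.02, and of the 9 rows other than Atf7ip 0.01, with 7 positive and 2 negative in the authors' deposited table. The median over all genes was 0.00, and 49.9% of all genes were positive.

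These rows were measured more precisely than most genes. Their SE ranged from 0.0383 to 0.0909, and all 11 were below the median of all genes, 0.0940. The smallest Wald statistic of any called gene was 3.37 in size, so a log2 change of 0.129 for Cbx5, 0.136 for Trim28, 0.239 for Setdb1 and 0.306 for Cbx3 would have been the smallest to be called. Across the 9 rows other than Atf7ip, the intervals ran from -0.24 to 0.21, or from 0.849-fold to 1.16-fold. A change below the gene's own limit, which differs by gene, would not have been called.

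**Figure D2:**
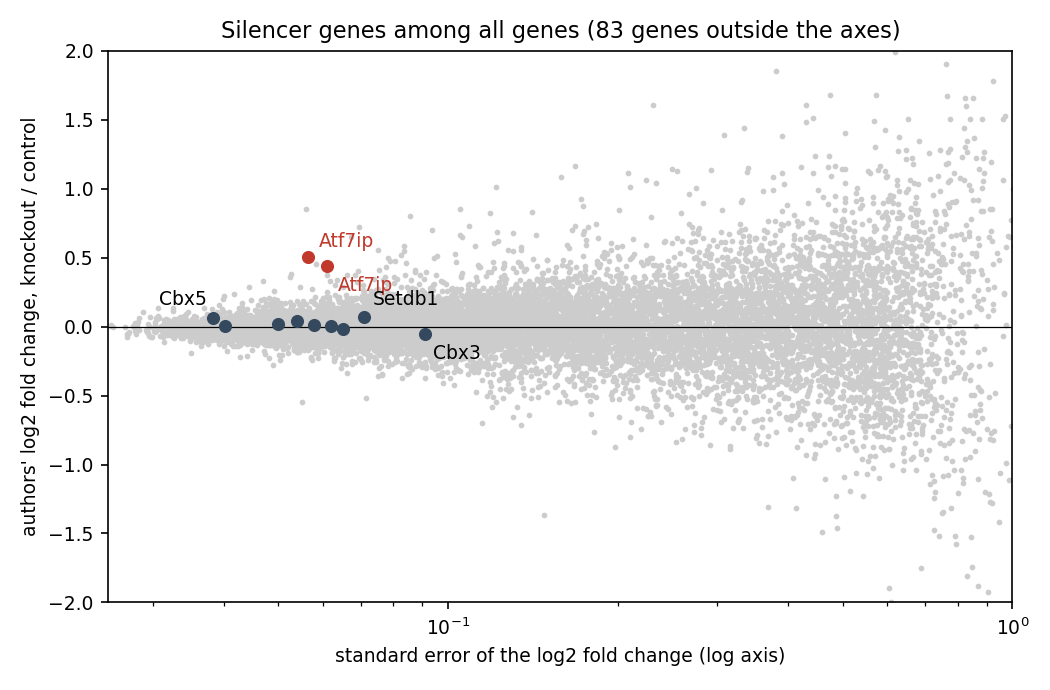
Log2 fold change, knockout over control, as deposited (y axis), against its SE (x axis, log scale) for all genes in grey and the silencer rows in red where called and dark blue where not, with 83 genes outside the axes. The 2 Atf7ip points lie above most grey points at their SE, as does the grey point of Rian at 0.45 (SE 0.0583). The other 9 points lie within the grey cloud between -0.06 and 0.07.

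Some of these genes share sequence with copies elsewhere. Of the distinct 50-base windows of the annotated coding transcripts of Cbx3, 21.1% also occur in transcripts of 13 other genes, among them the processed pseudogenes Cbx3-ps6 and Cbx3-ps7. For Setdb1 the share was 6.46%, all of it with Gm4349, and for Atf7ip 1.27%, spread over 136 genes. Trim28, Mphosph8, Morc2a and Cbx1 had none, and Cbx5, Pphln1 and Fam208a had at most 1.03%. Whether the counting kept or dropped such reads is not known here, and the value of Cbx3 is uncertain to that extent. The windows were compared with GENCODE M21 transcripts only, which lack the second Atf7ip identifier. Sequence that it may share with the first could not be found, so the 1.27% of Atf7ip may be too low.

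**Figure D3:**
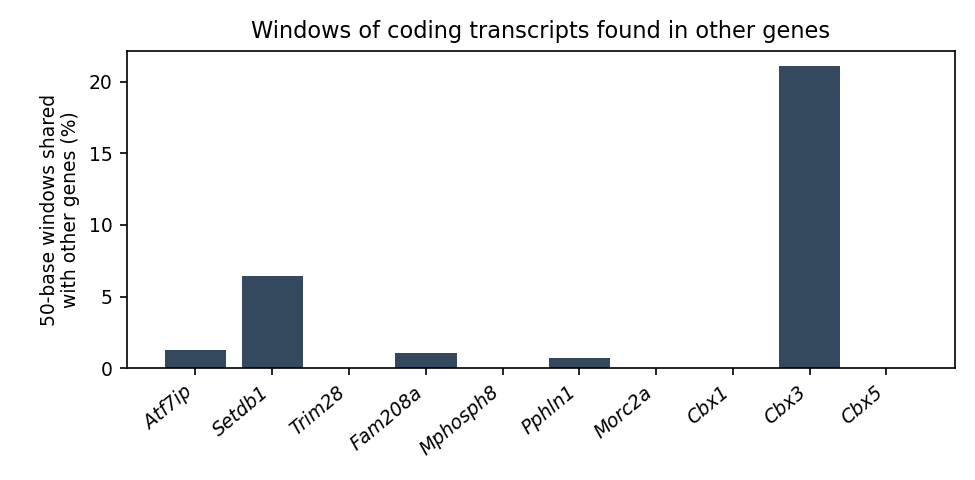
Share of distinct 50-base windows of the coding transcripts of each gene (x axis) found letter for letter in transcripts of other genes (y axis, percent). Only GENCODE M21 transcripts were compared, and the second Atf7ip identifier is not among them. The bar of Cbx3 reaches 21.1%, that of Setdb1 6.46%, and the others lie at or below 1.27%.

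Genes on the opposite strand overlap several members. The lengths given are of whole annotated gene spans, introns included, and overlap of exons was not measured. Atf7ip overlaps 4056 bases of the noncoding Gm44140, Setdb1 overlaps 75 bases of the ceramide synthase gene Cers2, Trim28 overlaps 6137 bases of the zinc finger gene Zbtb45, and Morc2a overlaps 483 bases of the noncoding Tug1. The kit was stranded, but no source used here gives the strand setting of the counting. Reads of any exon shared with such partners may therefore not be told apart. Cers2 stood at -0.18 (SE 0.0719, DESeq2 adjusted p = 0.296), Zbtb45 at 0.04 (SE 0.0640) and Tug1 at -0.05 (SE 0.0494) in the authors' deposited table, and none was called. Overlapping genes of Fam208a, Mphosph8 and Cbx1 with a row, namely Ccdc66, Gm16973 and Gm11517, were not called either.

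The genes around Atf7ip were counted where GENCODE M21 gave a position, so the second Atf7ip identifier could not be among them. Of 15 other genes with a row in the table within 1 Mb, 0 were called higher by the authors' DESeq2 test (0 also at an unadjusted p under 0.05) and 2 lower, with a median log2 fold change of -0.04 in the authors' deposited table. Over all genes 0.967% were called higher and 0.530% lower. With only 15 genes, nothing is read from these counts. Smco3, 219 kb away, stood at -0.52 (SE 0.125, DESeq2 adjusted p = 0.00458), and Rerg, which encodes a small GTPase of the RAS family and lies 444 kb away, at -0.26 (SE 0.0739, DESeq2 adjusted p = 0.0354) in the authors' deposited table. The nearest of them, Plbd1, lies 1208 bases beyond Atf7ip and had a wide interval, -1.44 to 0.57. Grin2b, an NMDA receptor subunit gene reported as a SETDB1 target in neurons, lies on the other side and stood at 0.03 (SE 0.0815) in the authors' deposited table.

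**Figure D4:**
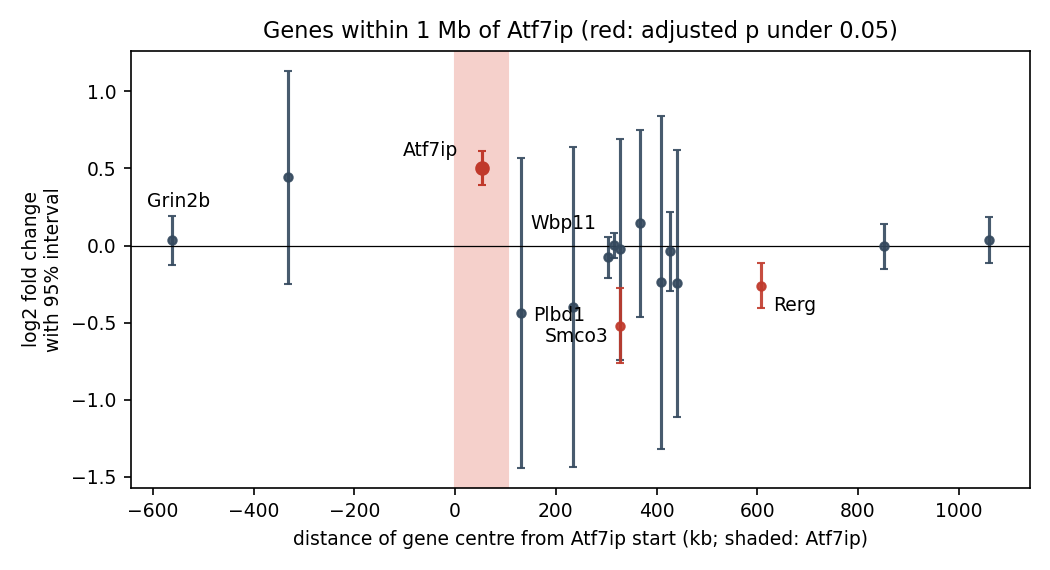
Authors' log2 fold changes with 95% intervals (y axis) of Atf7ip and the 15 other genes within 1 Mb against the distance of each gene's centre from the Atf7ip start in kb (x axis). Atf7ip, at 0.50 over the shaded gene, is the 1 point whose interval lies above 0, and Smco3 and Rerg have intervals below 0.

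Calls around all the members were counted too, again among genes with a GENCODE M21 position. Over the 10 members with a position, Atf7ip included, 284 neighbours within 1 Mb were counted. Of these, 2 were called higher (0.704%, against 0.967% of all genes) and 3 lower (1.06%, against 0.530%). The 3 lower calls are Smco3 and Rerg, near Atf7ip, and Otud7b, near Setdb1. For 7 of the 10 members no neighbour was called. Zfp110, 149 kb from Trim28, rose by 0.65 (SE 0.0673, DESeq2 adjusted p = 1.28e-18) in the authors' deposited table. Near Setdb1, the histone gene Hist2h3c2 stood at 0.79 (SE 0.229, DESeq2 adjusted p = 0.0403) and the deubiquitinase gene Otud7b at -0.22 (SE 0.0652, DESeq2 adjusted p = 0.0449) in the authors' deposited table, at distances of 881 and 747 kb.

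Other genes of the pathway were mostly uncalled. Over 5 lists of writers, erasers, partners, remodellers and heterochromatin factors, 3 of 81 genes were called higher (3.70%, against 0.967% of all genes) and 0 lower by the authors' DESeq2 test, with a median of 0.00 in the authors' deposited table. At an unadjusted p under 0.05, 8 were higher and 2 lower, a threshold that fewer than 1464 of all 17171 genes passed. The 3 called genes belong to 3 different lists. The lists were made with earlier results of these data known, so nothing is read from these shares. Chd3, a chromatin remodeller of the NuRD complex that TRIM28 recruits, stood at 0.19 (SE 0.0539, DESeq2 adjusted p = 0.0416) in the authors' deposited table. Mina, now named Riox2, stood at 0.29 (SE 0.0825, DESeq2 adjusted p = 0.0350) in the authors' deposited table. It was listed with the demethylases of this lysine, but its protein is best known as an oxygenase of ribosomal proteins.

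Morc1, a germ-cell relative of Morc2a that silences transposons in the mouse male germ line, had the largest rise of these lists, 3.37 (SE 0.548, 95% interval 2.30 to 4.45, DESeq2 adjusted p = 4.07e-07) in the authors' deposited table. Its SE was far above those of the silencer genes, and it left the tested set when an SE of at most 0.25 was required. The other MORC genes in the list, Morc2b, Morc3 and Morc4, stood at 0.00 (SE 0.196), 0.05 (SE 0.0561) and -0.07 (SE 0.115) in the authors' deposited table, and none was called.

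The other methyltransferases of this lysine and their cofactors had 0 of 12 genes called by the authors' DESeq2 test, with 3 at an unadjusted p under 0.05. Suv39h1, which acts at pericentric heterochromatin, stood at -0.22 (SE 0.0878, DESeq2 adjusted p = 0.304) in the authors' deposited table. Prdm2 stood at 0.09 (SE 0.0394) and Cdyl2, a chromodomain protein gene, at 0.16 (SE 0.0743) in the authors' deposited table. The HP1 partners and heterochromatin factors had 0 of 26 called, with 2 at an unadjusted p under 0.05. These were Smchd1, an X-chromosome silencing factor, at 0.11 (SE 0.0462), and Adnp, a subunit of an HP1-containing remodeller, at 0.34 (SE 0.144) in the authors' deposited table. Over all 17171 genes, fewer than 1464 had an unadjusted p under 0.05 by that test.

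The demethylases had 1 of 13 called higher (7.69%, against 0.967% of all genes), Mina, and the second in p-value was Kdm1a at 0.09 (SE 0.0503) in the authors' deposited table. The TRIM28-linked remodellers had 1 of 14 called higher (7.14%), Chd3, with the deacetylase gene Hdac1 at 0.19 (SE 0.0891, DESeq2 adjusted p = 0.484) in the authors' deposited table. The list of partners of ATF7IP, SETDB1 and HUSH had 1 of 16 called higher (6.25%), Morc1, which is in it as a relative of Morc2a. The next genes of that list by p-value were Trim66 at -0.18 (SE 0.0883) and Trim24 at 0.08 (SE 0.0581), both relatives of Trim28, in the authors' deposited table. These lists were made with earlier results of these data known, so the shares are a description only.

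**Figure D5:**
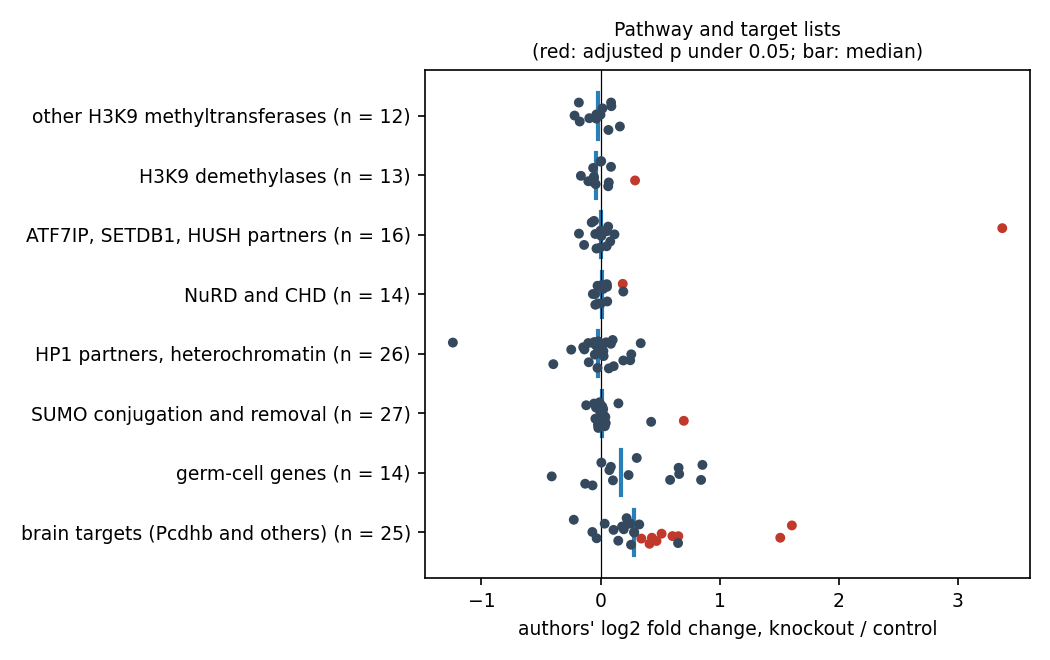
Log2 fold change, knockout over control, as deposited (x axis), of the genes in 8 pathway and target lists (y axis), 1 point a gene, red where called, with a bar at each list's median. The medians of the 6 machinery and SUMO lists lie between -0.04 and 0.01, and the brain target list, at 0.28, lies to the right.

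In the SUMO list, 1 of 27 genes was called higher (3.70%, against 0.967% of all genes), Sumo3, at 0.70 (SE 0.0934, DESeq2 adjusted p = 1.15e-10) in the authors' deposited table. This list too was made with earlier results of these data known.

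Genes that this machinery is reported to silence were described from a list of brain targets and a list of germ-cell genes. Zinc finger genes, taken by symbol and not as reported targets, are given beside them. Of 25 genes reported as SETDB1 or TRIM28 targets in mouse brain, most of them Pcdhb genes, 9 were called higher (36.0%, against 0.967% of all genes) and 0 lower, with a median of 0.28 in the authors' deposited table. Each of the 9 is a Pcdhb gene, led by Pcdhb8 at 1.61 (SE 0.231, DESeq2 adjusted p = 3.00e-09) in the authors' deposited table. This list was made with the rise of these genes known. The germ-cell list held 25 genes, and only 14 rows were matched to it. Of these 14, 0 were called by the authors' DESeq2 test, and 0 had an unadjusted p under 0.05. Their median was 0.17, with 11 positive. Some were measured imprecisely, such as Stk31 (SE 1.38) and Mael (SE 0.911), so a large rise in these could go uncalled. The 14 include Fkbp10 at 0.09 (SE 0.105), which the symbol lookup put in place of the listed Fkbp6. It is a different gene, so the count, the median and the number positive are inexact to that extent. Tex15 stood at 0.30 (SE 0.176), Brdt at 0.10 (SE 0.0665) and Smc1b at 0.84 (SE 0.681) in the authors' deposited table. Among 347 genes whose symbol is Zfp with a number, 2 were called higher (0.576%, against 0.967% of all genes), with a median of 0.00. That name pattern takes in KRAB zinc finger genes but is not limited to them. They were Zfp110 and Zfp369, the latter at 0.30 (SE 0.0705, DESeq2 adjusted p = 0.00260) in the authors' deposited table.

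Cell type markers give the setting of these values in bulk tissue, where fewer cells of a type and less RNA per cell cannot be told apart. The markers were chosen after their values were seen, so their signs and counts are a description only. All 15 oligodendrocyte markers had negative values (median -0.43, from -0.55 to -0.34), and 5 were called lower (33.3%, against 0.530% of all genes), among them Ermn at -0.55 (SE 0.121) in the authors' deposited table. The 8 endothelial markers were all positive (median 0.19), and the 10 choroid plexus and ependyma markers all negative (median -0.26). Astrocyte markers had a median of 0.04, microglia markers of -0.01 and interneuron markers of -0.08. The authors' DESeq2 test called 0 in each of these 5 lists, and at an unadjusted p under 0.05 there were 2 endothelial, 1 choroid plexus and ependyma, 2 astrocyte, 0 microglia and 1 interneuron markers. Over all 17171 genes, fewer than 1464 had an unadjusted p under 0.05 by that test. At the same unadjusted threshold there were 14 of the 15 oligodendrocyte markers and 7 of the 17 hippocampal excitatory neuron markers. Of the latter, a class in which Emx1 drives Cre, as it does in the glial lineage, 11.8% were called. Over all genes 0.967% were called higher and 0.530% lower. Dsp was called higher at 0.34 (SE 0.0738) and Bok lower at -0.28 (SE 0.0783), with a list median of 0.02 in the authors' deposited table. Emx1 itself is among these markers and among those under the unadjusted threshold, at -0.27 (DESeq2 adjusted p = 0.352). Whether the Emx1-Cre allele alters its value was not tested. All 17 have a row, while their levels were not analysed here. The part of these shifts in the value of Atf7ip was not tested.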

How the data were processed

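Stranded mRNA libraries of the hippocampus were made per the labels' protocols. Per the submitters' processing notes, the tools were DESeq2 for the test, HTSeq, STAR, cutadapt and Trim Galore, each without a version. No source used here gives the build, the annotation, the strand setting or any shrinkage of fold changes. Per the file headers, the deposited table holds for each gene a log2 fold change (knockout over wild type), a Wald statistic (a score), a p-value and an FDR adjusted p-value. Its 8 columns of values per sample carry names that match no sample label and were not used, so library depth and values per sample are not analysed here. The design allowed for a model of the samples and, failing that, a description of the authors' comparison, which was done.

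The SE is the ratio of log2 fold change to Wald statistic, and the 95% intervals assume a normal distribution. Recomputed Benjamini-Hochberg values over 17171 genes lay within 9.6e-15 of the deposited ones, and the adjustment was tested on simulated data. A call is an adjusted p under 0.05. GENCODE M21 (GRCm38) gave positions for 16955 identifiers and none for 216. List symbols absent from the table were looked up by identifier or RefSeq synonym. Members and lists were chosen with earlier results of these data known. Named genes are all members, called list genes and the list genes with the smallest p-values, genes ranked beside Atf7ip, and called genes within 1 Mb of a member. Plbd1, Grin2b, the overlapping genes, the Morc relatives, Sumo2 and the cell type markers were chosen after their values were seen. The software was pandas 2.3.3, numpy 2.4.6, matplotlib 3.10.9 and scipy 1.17.1 in Python 3.11.15.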

Additional observations from a re-analysis of the deposited data

How the results depend on the processing

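Of the 11 silencer rows, 2 were called as deposited, with coding genes only, with an SE of at most 0.25, with Bonferroni and with an adjusted p under 0.1. With a fold of at least 1.5 the count was 0, since Atf7ip rose by less. With identifiers in GENCODE M21 only, a setting chosen after seeing the data, it was 1, since the second Atf7ip identifier is then not tested. The 257 calls over all genes, 64.6% of them higher, became 79 with Bonferroni (81.0% higher) and 67 with the fold (83.6% higher), by construction of a stricter threshold, and the cause of the shift toward higher calls was not tested. The 13 calls in the pathway and target lists became 7 with Bonferroni and 6 with the fold. The 9 calls among the brain targets became 5 with Bonferroni and 4 with the fold. With Bonferroni the calls of Pcdhb5, Pcdhb6, Pcdhb11, Pcdhb20, Chd3, Mina, Rerg, Otud7b, Smco3, Hist2h3c2 and Zfp369 were lost. The called genes within 1 Mb of Atf7ip numbered 2 within 0.5 Mb and 3 within 2 Mb. No paired analysis was possible because no column could be tied to a replicate number. Leaving out each library, other tools, filters, normalizations and pseudocounts were planned and could not be run without values per sample. What depth limits is seen only in the SE.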
